A study of Mus musculus with 24 samples.

Results

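Inguinal fat pads hold a lymph node, and 5 of the 12 mouse fat libraries from the high-fat diet cohort carried the transcripts of one. These 5 libraries were chosen by a single measured gene, Glycam1, at above 1 CPM (the usual count scaled to sequencing depth, here to the column sum of the table). Of the 24 libraries in the series, 12 came from mice on the high-fat diet. The 5 above the threshold were WT-Tg 3 and D316A-Tg 7, 8, 9 and 11, so 1 of 6 WT-Tg and 4 of 6 D316A-Tg libraries, and the other 7 were WT-Tg 1, 2, 4, 5 and 6 and D316A-Tg 10 and 12. All animals were C57BL/6J mice with a transgene for AMPKγ1, the regulatory subunit of AMP-activated protein kinase encoded by Prkag1: the wild-type form in WT-Tg, which served as the control, and the D316A form in D316A-Tg. The high-fat cohort was 24 weeks old and ate a 45% high-fat diet; a second cohort of 6 WT-Tg and 6 D316A-Tg libraries came from 16-week-old mice on chow. The labels state neither the promoter or cell type that drives the transgene nor that each library is 1 animal, so p-values measure the spread between libraries. The tissue was whole subcutaneous white fat from the inguinal region near the flank, from which the lymph node had been dissected before freezing, as the protocols in the labels state.

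A lymph node sorts lymphocytes by address. High endothelial venules, the vessels that admit them from blood, secrete the mucin-like protein Glycam1. Reticular cells of the T zone release the chemokines Ccl21a and Ccl19, which draw T cells and dendritic cells through the receptor Ccr7. Follicular stroma releases Cxcl13, which draws B cells through Cxcr5, and the lymphocytes' lymphotoxins (Lta, Ltb) maintain that stroma in turn. Lactating mammary epithelium also makes Glycam1, so milk protein genes were looked at as well.

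The 4 genes that mark the node lie at separate or neighbouring loci of the mouse genome (coordinates from GENCODE M21, on GRCm38). Glycam1 is on chromosome 15 (103562759 to 103565081, minus strand), Cxcl13 on chromosome 5 (95956951 to 95961068, plus strand), and Ccl21a (42772860 to 42773993) and Ccl19 (42754525 to 42756577) both on the minus strand of chromosome 4. The 250 bases before the RefSeq start of a gene are shown for 3 of them, because these genes were high in the same libraries. The window of Ccl19, which overlaps an annotated transcript of the gene and holds 1 match to the motif below, is not printed. Capitals mark matches on either strand to GGG and CC with any 5 bases between them, a loose form of the site of NF-kB, the factor that lymphotoxin signalling activates; 45.8% of all 32851 RefSeq promoter windows of this length hold at least 1. The windows are chr15:103565082-103565331 (minus strand), chr4:42773992-42774241 (minus strand) and chr5:95956689-95956938 (plus strand) of GRCm38.p6, printed 5′ to 3′.
Glycam1: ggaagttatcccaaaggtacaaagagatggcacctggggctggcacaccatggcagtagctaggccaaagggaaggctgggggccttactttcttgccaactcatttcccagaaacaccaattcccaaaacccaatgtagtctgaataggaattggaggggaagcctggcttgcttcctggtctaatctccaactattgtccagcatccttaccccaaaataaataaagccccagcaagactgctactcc
Ccl21a: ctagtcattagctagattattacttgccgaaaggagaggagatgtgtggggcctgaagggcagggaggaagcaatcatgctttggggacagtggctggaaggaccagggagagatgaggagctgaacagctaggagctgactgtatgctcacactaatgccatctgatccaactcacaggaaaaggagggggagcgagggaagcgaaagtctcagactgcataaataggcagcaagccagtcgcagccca
Cxcl13: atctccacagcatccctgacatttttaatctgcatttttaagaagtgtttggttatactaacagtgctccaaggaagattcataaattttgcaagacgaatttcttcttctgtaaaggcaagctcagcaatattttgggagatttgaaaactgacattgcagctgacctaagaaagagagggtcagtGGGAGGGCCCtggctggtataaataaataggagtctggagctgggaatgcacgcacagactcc

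Cxcl13 had 1 match, which began 63 bases before its start, and Glycam1 and Ccl21a had none in these windows. Over gene lists, 10 of 13 windows of node stroma genes (76.9%), 11 of 17 of B lymphocyte genes (64.7%), 7 of 13 of high endothelial venule genes (53.8%) and 14 of 29 of T lymphocyte genes (48.3%) held the motif. The octamer ATGCAAAT, the site of the Oct factors that Pou2af1 assists in B cells, was in 1 of the 17 B lymphocyte windows and in 1.6% of all windows. These are letter matches only.

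On the scale of the choosing rule, Glycam1 stood at 2.50 CPM in WT-Tg 3 (54 counts), 3.66 in D316A-Tg 7 (74 counts), 10.4 in D316A-Tg 8 (170 counts), 1.82 in D316A-Tg 9 (31 counts) and 11.1 in D316A-Tg 11 (197 counts). The library just inside the threshold was thus D316A-Tg 9, and the library just outside it was D316A-Tg 12 with 0.289 CPM (6 counts). WT-Tg 4 had 3 counts, WT-Tg 1 had 1, and WT-Tg 2, 5 and 6 and D316A-Tg 10 had 0, which allows up to 3 counts in each, as counting error alone. The libraries held 16373731 to 22748132 counts each, and no pair of libraries of a group agreed within sampling noise (lowest chi-square per degree of freedom 19.9). Since measured values made the split, every difference across it below is a description without a test, given as a log2 difference of normalised counts with genotype as covariate and its standard error (SE). A gene was counted as separated when its CPM, scaled by trimmed mean of M values (TMM), did not overlap between the 5 and the 7 libraries and its fitted difference was at least 2-fold. Of 14989 genes tested, 558 (3.72%) were separated in the higher and 282 (1.88%) in the lower direction, around a median log2 difference of -0.01 over all genes. The counts given below for each gene list stand against these shares. In whole tissue, more node cells and more RNA per cell cannot be told apart.

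The other node chemokines followed Glycam1 in all 5 libraries. On the TMM scale used from here on, Ccl21a stood at 43.7 CPM in WT-Tg 3 and at 77.6, 145, 33.8 and 80.7 CPM in D316A-Tg 7, 8, 9 and 11, against 0 to 2.59 CPM (median 0.298) in the other 7, a log2 difference of 6.24 (SE 0.57). Cxcl13 stood at 33.6, 49.9, 91.2, 18.2 and 78.6 CPM in the same order, against 0.737 to 2.74 CPM (median 1.46), a log2 difference of 4.81 (SE 0.44). Ccl19 was scarcer, at 6.26, 5.14, 7.61, 0.953 and 7.01 CPM against 0 to 0.355 CPM, a log2 difference of 5.47 (SE 0.95). Ccl21a and Ccl19 transcripts share 71.6% and 52% of their 50-base words with those of other genes, so their counts are uncertain. In all 4 genes D316A-Tg 9 was the lowest of the 5 libraries, and D316A-Tg 12 the highest of the 7, with no overlap. The same 2 libraries closed the gap in many genes: D316A-Tg 9 was the lowest of the 5 in 447 of the 558 higher genes, and D316A-Tg 12 was the highest of the 7 in 192.

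**Figure D1:**
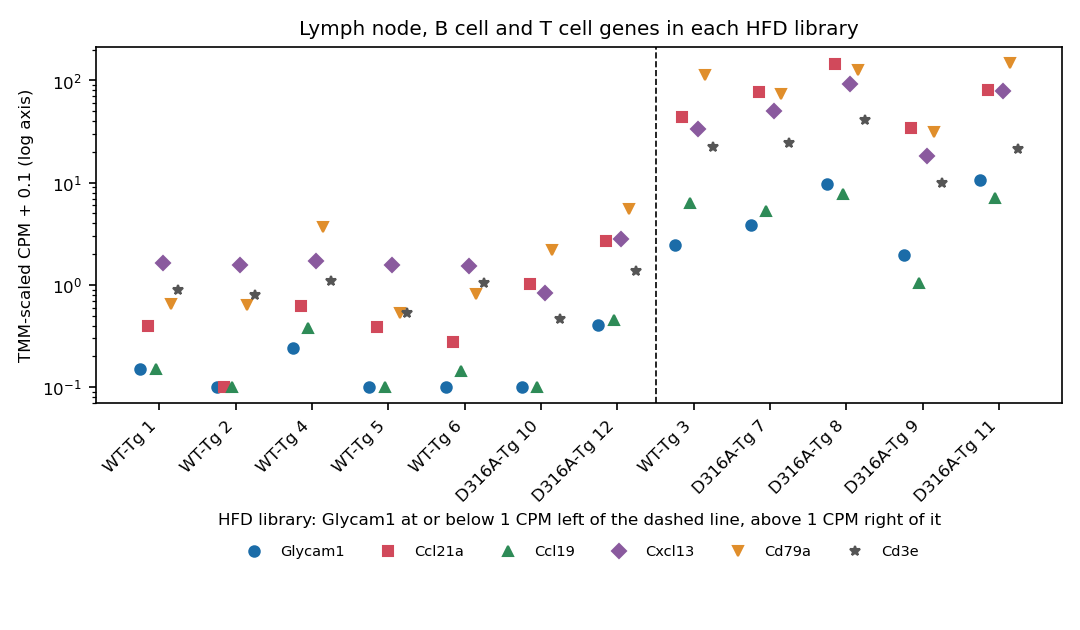
TMM-scaled CPM plus 0.1 (log axis) of Glycam1, Ccl21a, Ccl19, Cxcl13, the B cell receptor gene Cd79a and the T cell receptor gene Cd3e in each high-fat diet library; points at the bottom are at or near 0 CPM. Right of the dashed line are the 5 libraries with Glycam1 above 1 CPM, where Cd79a runs from 30.9 to 147 CPM, and left of it the other 7, where it runs from 0.438 to 5.38 CPM.

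Milk protein genes were at or near 0. Of 12 mammary genes, the casein genes Csn1s1 and Csn1s2a and the whey protein gene Wap were at 0 counts in all 12 libraries, and Csn2 did not exceed 0.28 CPM in any. The summed level of the list was 1.65 to 4.87 CPM in the 5 libraries and 0.559 to 36.3 CPM in the other 7. The highest sum was that of WT-Tg 5, where Glycam1 was at 0 and the basal keratins Krt5 and Krt14 stood at 23.3 and 9.88 CPM. Epcam, an epithelial adhesion gene, was the list's separated member, at 1.15 to 2.41 CPM against 0 to 0.99 CPM.

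Beyond Glycam1, the high endothelial venule list was mixed, with 1 of 8 other tested members separated higher and 1 lower (median log2 difference 0.24). Fut4 and Fut7, fucosyltransferases that modify the sugars of venule glycoproteins, had log2 differences of 1.16 (SE 0.27) and 1.59 (SE 0.43), with Fut4 separated and Fut7 overlapping. With library totals in place of TMM, Fut4 was not separated either, nor was it without D316A-Tg 10. Fut7 was at 2.12, 1.36, 2.57, 0.596 and 1.49 CPM in WT-Tg 3 and D316A-Tg 7, 8, 9 and 11, against 0.283 to 0.876 CPM, so D316A-Tg 9 lay inside the range of the other 7. Chst4, a sulfotransferase of the same venules, had too few counts to be tested. Selp, a selectin of activated endothelium in general, was separated in the lower direction (log2 difference -1.24, SE 0.29), though not when the counts were scaled by library totals or size factors (RLE), or when WT-Tg 1 or 5 or D316A-Tg 8 or 11 was left out. Ackr1 and Enpp2, which fat vessels or fat cells also express, differed by -0.16 (SE 0.23) and -0.07 (SE 0.14), and both overlapped. Ackr1 transcripts share 20.4% of their 50-base words with those of Cadm3, so its counts are uncertain.

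Of 15 tested genes of node stroma and follicular dendritic cells, 6 were separated in the higher direction and none in the lower (median log2 difference 1.08). The 6 were Ccl21a, Ccl19, Cxcl13, Cr2, Clu and Tnfsf11. Cr2, the complement receptor of follicular dendritic cells and B cells, was at 36.5, 40.1, 66.7, 19.01 and 98.8 CPM in WT-Tg 3 and D316A-Tg 7, 8, 9 and 11, against 0.107 to 2.59 CPM (median 0.404) in the others. Clu, which follicular dendritic cells share with other tissues, was at 164, 168, 315, 94.0 and 267 CPM against 20.3 to 38.3 CPM (median 23.4), a log2 difference of 2.65 (SE 0.31). Tnfsf11 is the cytokine RANKL of the node's organising stroma, and its log2 difference was 4.26 (SE 0.79). Members with wide expression in fat overlapped and lay on both sides of 0: Vcam1 at 0.62 (SE 0.32), Icam1 at 0.89 (SE 0.29), the lymphotoxin receptor gene Ltbr at -0.49 (SE 0.11), Pdpn at -0.80 (SE 0.34) and Mfge8 at -0.999 (SE 0.26). The remaining members Il7, Tnfsf13b, Bst1 and Cxcl12 were not separated either. With library totals their log2 differences were 0.36, 1.19, 1.67 and 0.72. Lymphatic endothelium had 1 separated gene of 9 (median 0.81): Mmrn1, at 1.499, 4.69, 7.83, 1.31 and 6.96 CPM against 0.0449 to 0.647 CPM, while Flt4, the lymphatic growth factor receptor, differed by -0.01 (SE 0.17). The remaining tested members Prox1, Stab2, Itga2b, Reln, Ackr4, Lyve1 and Ackr2 were not separated. With library totals their log2 differences were 2.14, 1.55, 1.01, 0.91, 0.85, 0.73 and -0.42.

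Lymphocyte genes were higher in the 5 libraries almost without exception. All 28 T lymphocyte genes tested were separated in the higher direction (median log2 difference 4.14), and so were 20 of 21 B lymphocyte genes (median 5.00). Cd79a, the signalling chain of the B cell receptor, stood at 113 CPM in WT-Tg 3 and 73.3, 128, 30.9 and 147 CPM in D316A-Tg 7, 8, 9 and 11, against 0.438 to 5.38 CPM (median 0.718), a log2 difference of 5.48 (SE 0.67). Cd3e, a chain of the T cell receptor complex, was at 22.01, 24.1, 41.3, 9.89 and 21.1 CPM against 0.369 to 1.27 CPM (median 0.796), a log2 difference of 4.83 (SE 0.42). Neither gene overlapped between the sets. Separated genes with at least 5 CPM were ranked without predicted genes, pseudogenes and antigen receptor segments. Among them Spib, a transcription factor of B cells, had the second largest log2 difference, 5.68 (SE 0.63), after Ccl21a. Of the 10 largest, Cr2, Fcmr (the receptor for IgM), Pax5 (the factor that fixes B cell identity), Cd79a and Ly6d, a surface protein of B lineage cells, are B lineage genes. Grem1 (a BMP antagonist, log2 difference 5.61), Nsg2 (5.58) and Dapl1 (5.57) completed the 10. Regulatory T cell genes were among the separated: Foxp3 was at 4.54, 6.45, 12.0, 3.87 and 5.26 CPM against 0.149 to 0.559 CPM. Antigen receptor gene segments are not named singly. Of those tested, 43 of 46 immunoglobulin and 12 of 12 T cell receptor segments were separated in the higher direction, against 3.72% of all genes. The filter for low counts keeps segments counted in the 5 libraries alone, so these shares are in part set by it.

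Ighm, the constant gene of IgM, was the exception in the B lymphocyte list, with a log2 difference of -0.19 (SE 0.32). It stood at 1322, 439.6, 951, 590.1 and 1038 CPM in WT-Tg 3 and D316A-Tg 7, 8, 9 and 11, and at 508 to 1549.6 CPM (median 1290.2) in the other 7. The sets overlapped throughout, and the Ighm level was high also where Igkc, the constant gene of the kappa light chain, was at 1.99 to 15.9 CPM. Igkc itself was at 237, 125, 541, 107 and 326 CPM in the 5 libraries, a log2 difference of 5.15 (SE 0.61). Without Ighm, the summed level of the B lymphocyte list was 975.3 CPM in WT-Tg 3 and 770.8, 1399, 375 and 1676 CPM in D316A-Tg 7, 8, 9 and 11, against 31.2 to 84.0 CPM in the others. That sum was formed after the values of Ighm were seen.

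Other immune cells were represented unequally. Of 12 germinal centre and plasma cell genes, 4 were separated in the higher direction (median log2 difference 1.08): Igkc, Jchain, which joins secreted antibody units, Mzb1 and Gcsam. Jchain was at 113 CPM in D316A-Tg 8 and at 8.93 to 32.3 CPM in the other 4 of the 5, against 0.376 to 2.79 CPM. Mzb1 shares 53.5% of its 50-base words with a transcript of a neighbouring gene, so its counts are uncertain. Dendritic cell genes had 6 of 15 separated higher and 1 lower (median 1.23). Ccl22, a chemokine of mature dendritic cells, was at 18.3, 28.6, 57.3, 9.53 and 31.5 CPM against 0.895 to 3.71 CPM, and Siglech, of plasmacytoid dendritic cells, had a log2 difference of 3.02 (SE 0.45). Of the 4 genes of node sinus macrophages, Timd4, a receptor for dying cells, was separated at 19.9, 18.5, 43.2, 6.44 and 45.4 CPM against 1.29 to 3.01 CPM, whereas the scavenger receptor gene Marco overlapped (log2 difference 2.65, SE 0.59) and the sialoadhesin gene Siglec1 differed by -0.09 (SE 0.32). Of 10 NK and cytotoxic genes, Nkg7 and Prf1 were separated in the higher direction (median 0.51), against 3.72% of all genes. Ncr1, a receptor of NK cells, differed by 0.71 (SE 0.40) with overlap.

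Of 14 chemokine and oxysterol pathway genes, 8 were separated in the higher direction (median log2 difference 2.23). Ccr7, the receptor for Ccl21a and Ccl19, was at 34.0, 47.4, 69.9, 14.6 and 42.1 CPM in WT-Tg 3 and D316A-Tg 7, 8, 9 and 11, against 0.746 to 2.49 CPM, and Cxcr5, the receptor for Cxcl13, had a log2 difference of 4.99 (SE 0.55). Ch25h, which makes the oxysterol precursor that guides B cells, had a log2 difference of 2.14 (SE 0.38), and Gpr183, the oxysterol receptor, one of 2.33 (SE 0.50) with overlap. The scavenging receptor gene Ackr3 lay lower at -0.57 (SE 0.22), and S1pr1, which lets lymphocytes leave the node and is abundant in endothelium, at 0.07 (SE 0.14). Of 13 lymphotoxin pathway genes, 3 were separated: the ligands Ltb, Lta and Tnfsf14. Ltb was at 74.3, 44.7, 83.4, 15.9 and 64.8 CPM against 0.995 to 3.35 CPM (median 1.57), a log2 difference of 4.90 (SE 0.48). The receptors and the NF-kB genes of the pathway overlapped, with Nfkb2 at 0.55 (SE 0.23) and Relb at 0.65 (SE 0.16).

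**Figure D2:**
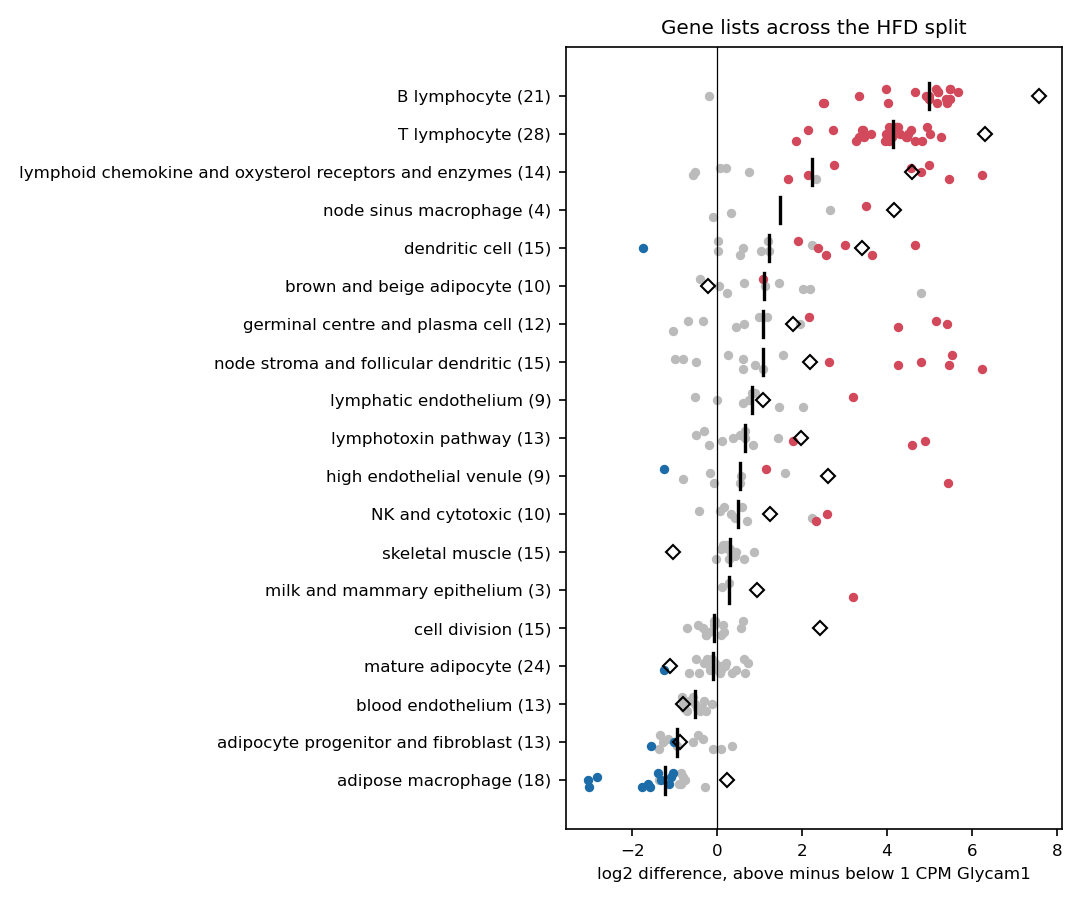
Log2 difference between the high-fat diet libraries with Glycam1 above 1 CPM and the other 7, for each tested gene of each list (number of tested genes in brackets). Red and blue points are genes separated in the higher and lower direction, grey points are not separated, the black bar is the list's median and the open diamond its median across the same split of the chow libraries; B and T lymphocyte genes stand at medians of 5.00 and 4.14, and adipose macrophage genes at -1.23.

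Adipose macrophage genes were lower in the 5 libraries. Of 18 tested, 11 were separated in the lower direction and none in the higher (median log2 difference -1.23), against 1.88% of all genes; with library totals 8 were (median -1.13). Trem2, a lipid receptor of macrophages in obese fat, stood at 17.2 CPM in WT-Tg 3 and 1.11, 1.34, 1.61 and 1.70 CPM in D316A-Tg 7, 8, 9 and 11, against 29.0 to 68.5 CPM (median 38.4) in the others, a log2 difference of -3.03 (SE 0.55). Gpnmb, a lysosomal glycoprotein gene of the same cells, was at 32.2, 7.16, 10.5, 12.8 and 13.1 CPM against 66.2 to 196 CPM (median 119.5), a log2 difference of -2.83 (SE 0.37). Mmp12, a macrophage elastase, was at 35.4, 1.61, 3.02, 5.96 and 4.04 CPM against 53.0 to 124 CPM. In all 3 genes WT-Tg 3 stood between the 4 D316A-Tg libraries and the rest, and D316A-Tg 10 and 12 stood among the WT-Tg libraries. The general macrophage gene Adgre1 differed by less, -1.77 (SE 0.31), and Lyz2, the lysozyme gene, by -0.29 (SE 0.30) with overlap.

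**Figure D3:**
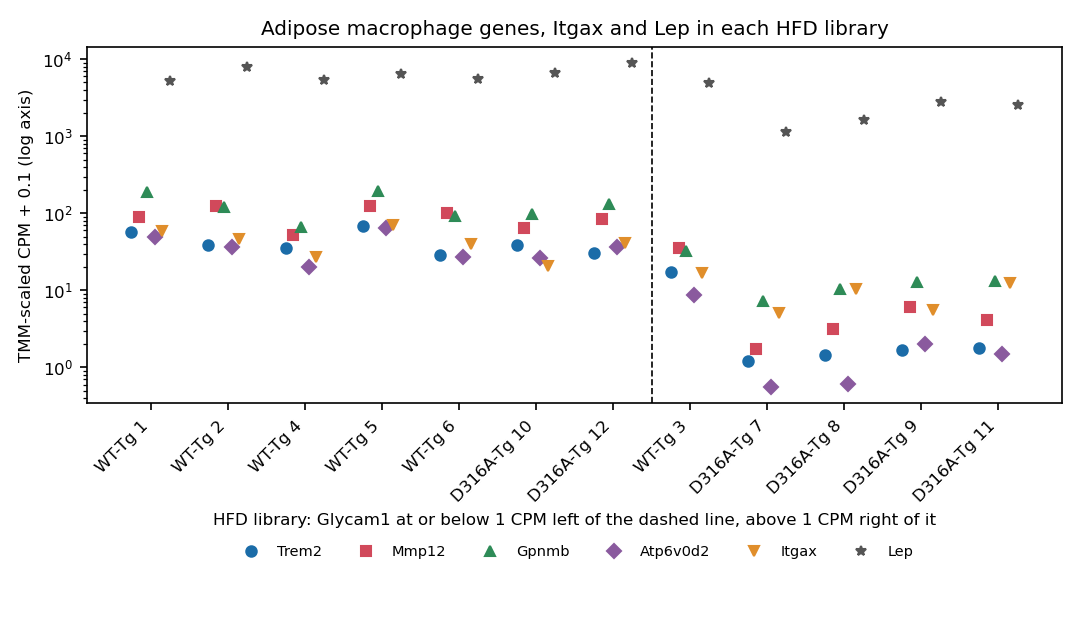
TMM-scaled CPM plus 0.1 (log axis) of the macrophage genes Trem2, Mmp12, Gpnmb and Atp6v0d2, the integrin gene Itgax and the leptin gene Lep in each high-fat diet library, in the same order as the node genes above. WT-Tg 3 has 17.2 CPM of Trem2, between the 1.11 to 1.70 CPM of the 4 D316A-Tg libraries right of the dashed line and the 29.0 to 68.5 CPM of the 7 left of it.

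Over the 282 lower genes, the median log2 difference was -1.41 in the fit to 12 libraries, -1.65 between D316A-Tg 7, 8, 9 and 11 and D316A-Tg 10 and 12 alone (the 273 that could be tested there), and -1.04 between WT-Tg 3 and the mean of the other 5 WT-Tg libraries. Over the 558 higher genes the same values were 2.73, 2.99 and 2.404. The rule for separation sets WT-Tg 3 beyond the other WT-Tg libraries, and D316A-Tg 7, 8, 9 and 11 beyond D316A-Tg 10 and 12. The direction within each genotype was thus fixed by the choice of genes, and these values describe sizes only. Without WT-Tg 3, 637 genes were separated in the lower direction, and without D316A-Tg 9, 841 in the higher. Lower differences with at least 5 CPM were also ranked without predicted genes, pseudogenes and antigen receptor segments. The 10 largest included Atp6v0d2, a proton pump subunit (-3.58, SE 0.58), Tnip3, an inhibitor of NF-kB signalling (-3.13, SE 0.58), the acute phase gene Saa3 (-2.96, SE 0.63), the clotting factor gene F7 (-2.995, SE 0.48) and Tph2, a serotonin synthesis enzyme (-3.55, SE 0.74), beside Trem2, Mmp12 and Gpnmb. Tph2 was at 39.3 CPM in WT-Tg 3 and 0.336 to 3.08 CPM in the 4 D316A-Tg libraries, against 41.8 to 154 CPM in the others. Ces1g and Fam83d were the remaining 2.

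Itgax, the integrin CD11c of dendritic cells and of macrophages in obese fat, was the dendritic list's lower gene. It was at 16.7, 4.99, 10.4, 5.42 and 12.4 CPM in WT-Tg 3 and D316A-Tg 7, 8, 9 and 11, against 20.7 to 71.0 CPM (median 40.7), a log2 difference of -1.75 (SE 0.34). Of 13 progenitor and fibroblast genes, 2 were separated in the lower direction, the collagen genes Col1a1 (log2 difference -1.56, SE 0.33) and Col1a2 (-1.01, SE 0.28), with a list median of -0.95. Under library totals Col1a2 was not separated (-0.92), and without WT-Tg 3 6 of the 13 were. No blood endothelial gene of 13 was separated (median -0.51). Of 24 fat cell genes, only Lep, the leptin gene, was separated, at 4939.9 CPM in WT-Tg 3 and 1139.8 to 2775 CPM in the 4 D316A-Tg libraries, against 5235 to 8896 CPM. The list's median was -0.09 (0.01 under library totals, where, as without D316A-Tg 12, Lep was not separated), and Adipoq and Plin1 differed by -0.43 (SE 0.17) and 0.09 (SE 0.14) with overlap.

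Muscle and thermogenic transcripts varied widely between libraries, and muscle transcripts were high in most D316A-Tg libraries. The summed level of 15 skeletal muscle genes was 22.9 to 236 CPM in WT-Tg, lowest in WT-Tg 3. It was 23714, 1541, 1946, 6278, 583 and 234 CPM in D316A-Tg 7 to 12, highest in D316A-Tg 7. No gene of the list was separated (median log2 difference 0.31, -1.38 without D316A-Tg 7 and 1.88 without D316A-Tg 10). D316A-Tg 7 also had the highest Ucp1, the uncoupling protein of thermogenic fat cells, at 959.8 CPM, against 133, 58.1, 9.36 and 7.12 CPM in WT-Tg 3 and D316A-Tg 8, 9 and 11 and 1.27 to 352 CPM in the other 7. The log2 difference of 4.79 for Ucp1 had an SE of 1.49, the sets overlapped, and without D316A-Tg 7 it was 1.82. Of 10 brown and beige adipocyte genes, 6 had a difference of at least 2-fold in the higher direction (median 1.10, and 0.50 without D316A-Tg 7), among them Cidea, a lipid droplet gene, at 2.20 (SE 0.71), and Dio2, a thyroid hormone deiodinase, at 2.03 (SE 0.91). Ppargc1a, the mitochondrial coactivator, was the 1 that was separated, at 14.1, 36.6, 22.8, 24.3 and 14.4 CPM against 6.35 to 12.6 CPM, though not without D316A-Tg 7 or without D316A-Tg 12. Its difference turned to -0.10 when only D316A-Tg 8 and 11, the libraries above 5 CPM of Glycam1, were set against the other 10. None of 15 cell division genes was separated (median -0.07, and 0.03 under library totals). Prkag1, the gene of the transgene, was at 292 to 338 CPM in WT-Tg and 246 to 687 CPM in D316A-Tg, the highest in D316A-Tg 7. Both groups carry the transgene, so Prkag1 cannot tell the genotypes apart.

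The chow libraries, which the choosing rule did not use, were split by the same Glycam1 threshold to see which of these genes recurred. Glycam1 was above it in WT-Tg 1 to 4 and D316A-Tg 8 and 11, at 39.4 to 82.2 CPM on the scale of the rule, and at most 0.0678 CPM in the other 6. On chow 15.5% of 15249 genes were separated in the higher direction and 4.34% in the lower. Of the 551 genes higher across the high-fat split that could be tested on chow, 521 (94.6%) were separated in the higher direction there too and none in the lower. Of the 230 testable lower genes, 20 (8.70%) were separated in the lower direction on chow and 12 in the higher. Their median log2 difference on chow was -0.45, with 147 (63.9%) below 0, against a median of -0.03 over all genes. The 94.6% stands against 15.5% of all genes, and the 8.70% against 4.34%. Adipose macrophage genes had a chow median of 0.25 with none of 18 separated lower, and Itgax lay the other way, at 20.4 to 47.1 CPM in the node-rich chow libraries against 2.15 to 5.46 CPM. Of 24 fat cell genes, 19 were separated in the lower direction on chow (median -1.11). The lower side on chow depended on the scaling: with library totals in place of TMM the median of all genes moved from -0.03 to 0.29, the separated genes were 3196 higher and 43 lower in place of 2364 and 662, 1 fat cell gene was separated (median -0.79), and 4 lower genes recurred in place of 20. Of 15 cell division genes, 14 were higher on chow (median 2.44).

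**Figure D4:**
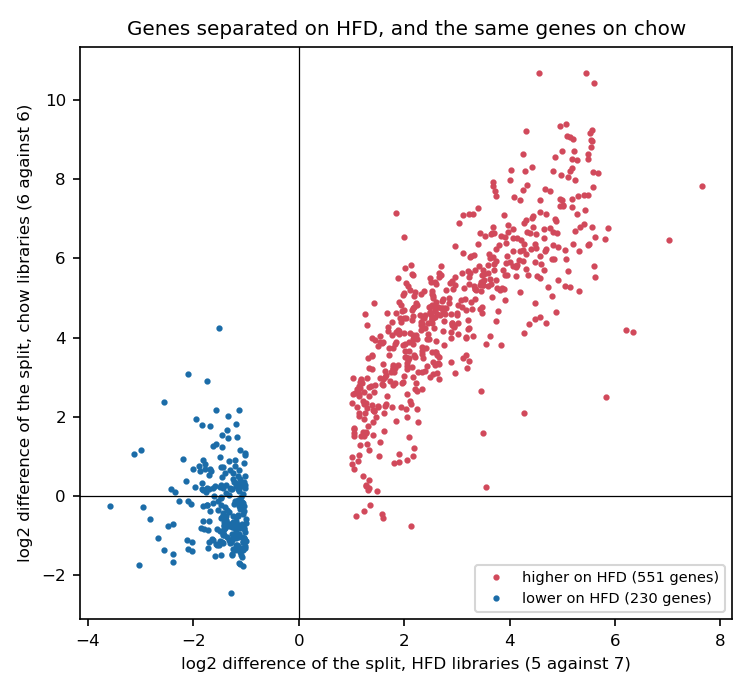
Log2 differences across the Glycam1 split for genes separated on the high-fat diet (x axis, 5 against 7 libraries) and the same genes on chow (y axis, 6 against 6). The 551 higher genes (red) lie above 0 on chow in nearly all cases, 521 of them separated. The 230 lower genes (blue) lie on both sides of 0, with 147 below it (median -0.45), 20 separated lower and 12 higher.

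Node genes were also set against the B cell gene Cd79a in both cohorts. Per 100 CPM of Cd79a, Glycam1, the gene that chose the libraries, was 2.11 to 7.46 CPM in the 5 high-fat libraries (median 5.97) and 16.97 to 40.4 CPM in the 6 chow libraries above the threshold (median 24.97). The same ratio of Fut7 was 1.01 to 2.02 against 2.33 to 4.07. Neither pair of ranges overlapped, whereas Chst4 and Madcam1, an addressin of venules, overlapped at 0.391 to 1.54 against 1.40 to 3.66 and at 0.391 to 1.62 against 0.503 to 3.38. Both had too few counts to be tested across the high-fat split, so their ratios are uncertain. Chst4 overlapped through D316A-Tg 9 (1.54) alone. The ratios of Cxcl13 (29.8 to 71.5 against 34.5 to 64.8), Cr2 (32.4 to 67.1 against 37.5 to 75.3) and Cd3e (14.3 to 32.9 against 21.5 to 69.9) overlapped as well. Diet and age differ between the cohorts, and so does the version of the read conversion software in the labels. These cannot be told apart, and no test was made across the 2 tables. How many of all genes have ratios that do not overlap was not counted. Ccl21a and Ccl19 could not be compared: in the chow table each had at most 1 count in any library, although Cxcl13 was at 54.6 to 152 CPM in the 6 chow libraries. Of their 50-base words, 71.6% of Ccl21a and 52% of Ccl19 also occur in transcripts of near-identical genes, among them Ccl21b, and how reads with several matches were counted is not given in the sources used here. Glycam1 and Cxcl13 share no such word with another gene.

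Because 4 of 6 D316A-Tg but 1 of 6 WT-Tg libraries were above the threshold, node content and genotype overlap in this cohort, and the comparison of D316A-Tg with WT-Tg was fitted without and with a term for the split. Without the term, edgeR's quasi-likelihood test with Benjamini-Hochberg adjustment called 1241 of 14649 genes (8.47%), 661 higher in D316A-Tg (4.51%) and 580 lower (3.96%). With it, 79 passed (0.539%), of which 27 rose and 52 fell in D316A-Tg, and 77 passed in both fits. The 2 others were Mustn1 (log2 difference 0.89, SE 0.18, adjusted p = 0.0438) and Tmem140. Few of the 1241 were genes separated across the split in the same direction: 9 of the 661 higher (1.36%, and 2.11% of the 426 such genes tested) and 5 of the 580 lower (0.862%, and 1.82% of 274). The rule for separation favours such low shares. It sets WT-Tg 3 apart from the other WT-Tg libraries, and D316A-Tg 10 and 12 from the other D316A-Tg libraries. That widens the spread within each genotype, so the shares do not measure the part of node content in the calls. All 1241 genes kept their direction with the term, while their median absolute log2 difference went from 0.71 to 0.55 and their median SE from 0.164 to 0.161. These genes were chosen for passing in the fit without the term, which favours smaller differences in the other fit. The drop therefore does not measure the part of node content. The first count was 3919 and the second 687 without D316A-Tg 12, and the second was 0 without WT-Tg 3 or without D316A-Tg 10. In those last 2 fits edgeR's unadjusted p was below 0.05 for 1556 and 1420 genes, and DESeq2 called 196 and 191. Leaving out any one of 9 other libraries (WT-Tg 1, 2, 4, 5 or 6, or D316A-Tg 7, 8, 9 or 11) also moved the first count by more than 1.5 times, to between 326 without WT-Tg 6 and 639 without D316A-Tg 7. The second count was 28 to 51 without WT-Tg 1, 4, 5 or 6 or D316A-Tg 8 or 11, and 218 without D316A-Tg 7.

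**Figure D5:**
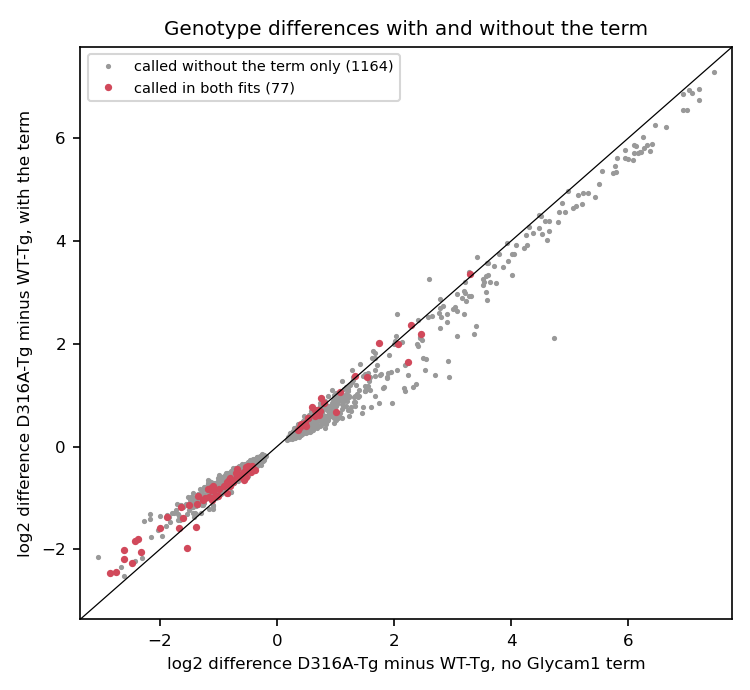
Log2 difference D316A-Tg minus WT-Tg on the high-fat diet without (x axis) and with (y axis) a term for the Glycam1 split, for the 1241 genes called without it; the line marks equality. The 77 genes also called with the term are red, and most points lie nearer to 0 on the y axis than on the x axis. The genes were chosen by the fit on the x axis, which favours this.

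The genotype test of the lymphocyte genes turned on WT-Tg 3, the 1 WT-Tg library above the threshold. The median D316A-Tg minus WT-Tg log2 difference of the 20 tested B lymphocyte genes was 1.88 without the term and 0.62 with it, and that of the 28 T lymphocyte genes 1.94 and 0.53, and edgeR called none of either list in either fit (2 and 4 B and 7 and 3 T lymphocyte genes at an unadjusted p below 0.05). Without WT-Tg 3, the fit without the term called 17 of the 20 B lymphocyte genes (median 5.44) and 27 of the 28 T lymphocyte genes (median 4.04) higher in D316A-Tg, and the fit with the term none. Leaving out WT-Tg 3 leaves only WT-Tg libraries at or below the threshold, against D316A-Tg libraries mostly above it. Tests without WT-Tg 3 and without the term therefore cannot tell genotype from node content. With all 12 libraries and no term, DESeq2 called 1 and 3 of the B and T lymphocyte genes higher and limma voom 14 and 26. With the term the counts were 1 and 1, and 0 and 0. Cd79a had means of 19.8 ± 45.5 CPM (SD, n = 6) in WT-Tg and 64.4 ± 62.4 CPM (SD, n = 6) in D316A-Tg, with edgeR adjusted p-values of 0.423 and 0.612, and of 0.0251 without WT-Tg 3 and without the term. Its SD was above the mean in WT-Tg and close to it in D316A-Tg. Of 18 adipose macrophage genes, 5 fell in D316A-Tg without the term and none passed with it (list medians -1.20 and -0.70): the mannose receptor gene Mrc1, the complement genes C1qa, C1qb and C1qc, and the folate receptor gene Folr2. Folr2 was at -1.71 (SE 0.41, edgeR adjusted p = 0.0344) without the term and at -1.12 (SE 0.30, 0.0985) with it. The count of 5 was 11 without WT-Tg 3, 13 without D316A-Tg 12, 4 without D316A-Tg 10 and 0 without any one of the other 9 libraries. With the term, 11 of the 18 had an unadjusted p below 0.05 and DESeq2 called 3. Trem2, by contrast, passed in neither fit (adjusted p = 0.212 and 0.135). Of 13 fibroblast genes, 4 fell without the term (1 to 7 with 1 library left out) and 2 with it (0 to 2), the proteoglycan gene Lum (-1.36, SE 0.25, adjusted p = 0.040 with the term) and the growth factor receptor gene Pdgfrb (-0.81, SE 0.14, adjusted p = 0.0357). With 1 library left out, edgeR's adjusted p with the term ran from 0.0279 to 0.290 for Lum and from 0.0230 to 0.283 for Pdgfrb, both highest without WT-Tg 3. All 15 muscle genes rose in D316A-Tg without the term (5 without WT-Tg 6) and none was called with it (12 without D316A-Tg 7 and 13 without D316A-Tg 12), with a median log2 difference of 6.09 before and 5.78 after. Muscle content thus moved with genotype too, and its part in the other calls was not tested, except that with the muscle score as a further covariate edgeR called 0 genes in place of 79 (929 at an unadjusted p below 0.05, and 40 called by DESeq2). Calls lost with the term were ranked at 5 CPM or more, without predicted genes, pseudogenes and antigen receptor segments. The lowest adjusted p-values among them were those of Ripk4, a kinase of epithelial differentiation, Plekha6, Smcr8, an autophagy regulator, Peli3, the corepressor gene Ncor1, March6, a ubiquitin ligase, Trim33, Fbxo31, Rrm2b, a ribonucleotide reductase subunit, and Hsd17b10. Their adjusted p-values without the term ran from 0.00981 for Ripk4 to 0.0146 for Hsd17b10, and with it from 0.0505 for Smcr8, Peli3 and Trim33 to 0.0635 for Ripk4.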

How the data were processed

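The authors deposited 1 table of gene counts for the high-fat diet libraries and 1 for the chow libraries, whole numbers per Ensembl gene and not normalized. Per the labels' protocols, TruSeq stranded mRNA libraries were made from RNA of integrity number 7 or above; per the submitters' processing notes, reads were aligned with STAR 2.4.1 to mm10. How reads were counted (tool, annotation, strand) is not given in the sources used here. Totals were 16373731 to 22748132 counts on the high-fat diet and 13254536 to 17766546 on chow; intervals and floors cover counting error only. Of the gene identifiers, 95.2% and 96.4% matched GENCODE M21.

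Groups came from the labels and the Glycam1 split from the counts. The members, lists and tests were chosen with earlier results of these data known. edgeR 4.0.16 (R 4.3.3) with filterByExpr, TMM scaling and robust quasi-likelihood fits gave the log2 differences: genotype plus split over 14989 genes, and genotype without and with the split over 14649 genes, called at an adjusted p below 0.05. The first filter used the split as its group and the second genotype, so Glycam1 and Ccl19, among others, are not in the second. Named were the 4 markers and Prkag1; up to 6 genes a list with the largest difference at 1 CPM or more and those opposite to the list's median; the 10 largest separated genes each way at 5 CPM or more; and up to 10 genotype calls lost or gained with the term. Predicted genes, pseudogenes and antigen receptor segments were left out of the 10 largest separated genes and of the named genotype calls. A few further list members are named as examples, chosen after their values were seen. Scripts were tested on simulated counts. Alternatives were RLE or total scaling, no filter, other thresholds, further covariates, DESeq2 1.42.0, limma 3.58.1 voom and leaving out each library. RefSeq promoters came from GRCm38.p6 and shared 50-base words from GENCODE M21 transcripts.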

Additional observations from a re-analysis of the deposited data

Results flagged for a closer look

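WT-Tg 3 stood apart from the other 5 WT-Tg high-fat libraries by the gap between it and the next library as a share of the range. Its 2.38 CPM of Glycam1 (others 0 to 0.141) is the value that placed it in the high set. It had 43.7 CPM of Ccl21a (0 to 0.518), 6.26 CPM of Ccl19 (0 to 0.283) and 33.6 CPM of Cxcl13 (1.44 to 1.602). Its summed levels were 373.6 CPM for germinal centre and plasma cell genes (others at most 154.7), 700.0 CPM for T lymphocyte genes (at most 56.2), 30.5 CPM for NK and cytotoxic genes (at most 16.5) and 378.4 CPM for chemokine and oxysterol genes (at most 254.3). The lists were looked at because of the split, in which it is the 1 WT-Tg library above the threshold, so these values describe it and test nothing. The limit used is passed in about 1 of 20 groups of normally distributed values, and CPM with a floor at 0 need not follow that rate. Of 145 named genes, 51 had an outlying WT-Tg library, 42 of them WT-Tg 3 on the high side, and 20 an outlying D316A-Tg library. Many of these genes were named for their difference across the split, and separation by itself sets WT-Tg 3 beyond the other WT-Tg libraries. The counts are thus partly fixed by that choice and cannot be set against the rate of 1 of 20.

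Other libraries stood apart in genes outside the node. D316A-Tg 7 had 687 CPM of Prkag1 (others 246 to 394), 23714 CPM of summed skeletal muscle genes (234 to 6278) and 1919 CPM of summed brown and beige adipocyte genes (164 to 412.2). WT-Tg 5 had 236 CPM of summed muscle genes (22.9 to 83.2) and 36.3 CPM of summed mammary genes (1.67 to 5.07). WT-Tg 4 had 786 CPM of summed brown and beige adipocyte genes (255 to 416.4).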

How the results depend on the processing

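Depth limits the split itself, which rests on 31 to 197 counts of Glycam1 in the 5 libraries and at most 6 in the others. Across the high-fat split the counts of separated genes (558 higher, 282 lower) became 151 and 15 at a threshold of 0.2 CPM, which adds D316A-Tg 12 to the high set, 878 and 108 at 5 CPM, and 1146 and 777 in D316A-Tg libraries alone. Without the filter 847 genes were higher. Leaving out each library gave 556 to 841 higher (highest without D316A-Tg 9) and 235 to 637 lower (highest without WT-Tg 3). Scaling by library totals set the median of all genes at 0.09. Ppargc1a turned to -0.10 at the 5 CPM threshold. Genes called between genotypes without the term (1241) numbered 795 without the filter, 2794 with DESeq2, 4354 with limma voom, and 326 to 3919 with each library left out (lowest without WT-Tg 6, highest without D316A-Tg 12). With the term (79) they numbered 123 with total scaling, 877 with DESeq2, 481 with voom, 3 and 401 at thresholds of 0.2 and 5 CPM, 42 with log2 Glycam1 as a continuous term, 0 with the muscle score, 0 in the low libraries alone (edgeR; 1840 at an unadjusted p below 0.05, 372 by DESeq2), and 0 to 687 with each library left out. On chow, 520 to 524 of the higher and 19 to 24 of the lower genes recurred with each library left out, and 4 of the lower with total scaling (20 with TMM). The causes were not tested. No paired analysis was possible because the WT-Tg and D316A-Tg libraries of a diet share no replicate number.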
